A study of Mus musculus with 11 samples.

Results

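The sodium-potassium ATPase is the pump that moves sodium out of cells and potassium into them, and in the heart it sets the sodium gradient on which contraction, conduction and sodium-calcium exchange depend. A working pump holds a catalytic alpha subunit, a glycosylated beta subunit that carries alpha to the membrane, and often a small FXYD protein that tunes its affinity for ions. Phospholemman, the product of *Fxyd1*, is the FXYD protein of cardiac muscle and a substrate of protein kinase A, the kinase that cAMP activates. The genes described are *Atp1a4*, the alpha subunit of sperm, the beta subunits *Atp1b1*, *Atp1b2*, *Atp1b3* and *Atp1b4*, and *Fxyd1*. They were taken by name as subunits of the pump, with earlier results of these data known, and are 6 of the 55487 genes in the deposited counts. The other alpha subunits are not analysed here. All 6 had at least 10 counts over the hearts and were among the 24177 genes tested.

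The samples were embryonic hearts taken at day E14.5, of which 5 were *Pde2A*-/- and 6 were *Pde2A*+/+, and 1 stranded mRNA library was made from each. Both genotypes carry a mixed B6 and 129P2 background, and the knockouts are homozygous for the germ line allele tm1Dgen of the gene for PDE2A, an enzyme that degrades cAMP and cGMP, so that the allele is not confined to the heart. The embryos came from matings of heterozygotes, both sexes were collected, and the labels name no treatment. Replicate names are those of the labels, which give no litter. Sense-strand counts summed to 35865537 in the shallowest and 42835382 in the deepest library. *Pde2a* itself had 7 counts over the 11 hearts, too few to test the labelled genotypes with. Reads on no single gene are left out of these counts. The 7 counts are therefore not read as a level of expression, and the reason for so few was not tested. The 10 cardiomyocyte markers were all expressed and summed to between 14456 and 19290 CPM (counts scaled to the TMM-normalised library size) per heart. Of 10 erythroid markers, 9 were higher in *Pde2A*-/- hearts, and all 6 macrophage markers were higher. The other erythroid marker, *Alas2*, had a negative log2 fold change (-0.60) and was not called (adjusted p = 0.221, edgeR). The 10 erythroid markers summed to 525 to 1059 CPM in *Pde2A*-/- and 125 to 520 CPM in *Pde2A*+/+ hearts. *Alas2* made up 359.6 of the 520 CPM in *Pde2A*+/+ replicate 11. These are measurements on bulk tissue, in which fewer cells of a type and less RNA per cell cannot be told apart.

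Differences between genotypes were tested with edgeR (quasi-likelihood F test, p-values adjusted after Benjamini and Hochberg over all genes tested), and calls were made below an adjusted p of 0.05. Of the 6 pump genes, 0 were called higher in *Pde2A*-/- hearts, against 8.93% of all genes tested, and 2, *Atp1a4* and *Fxyd1*, were called lower, against 5.67%. *Atp1b4* was the 1 gene higher at an unadjusted p under 0.05, and DESeq2 called that gene. The median log2 fold change of the 6 genes was 0.05, and that of all genes tested was -0.02. The mean CPM of each of the 3 abundant beta subunits differed between the genotypes by less than the SD of the *Pde2A*+/+ hearts. For *Atp1b1* that SD was 53 CPM, and the SD of the *Pde2A*-/- hearts was 9.03 CPM. With 2 of 6 genes called, the count is too small to set the family apart from the background.

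**Figure D1:**
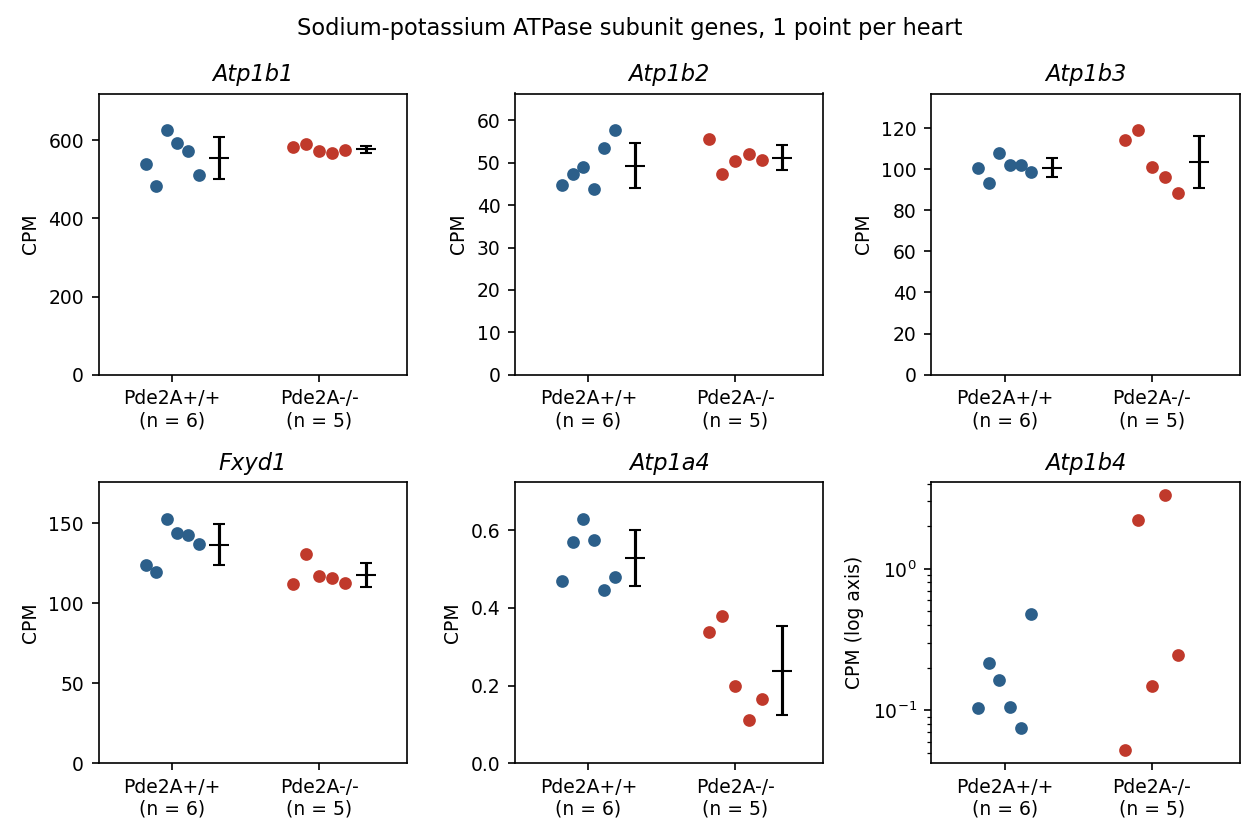
CPM of the 6 pump genes in each heart, with *Pde2A*+/+ in blue (n = 6) and *Pde2A*-/- in red (n = 5); bars give mean ± SD, left out for *Atp1b4*, whose axis is logarithmic. The genotypes overlap for *Atp1b1*, *Atp1b2* and *Atp1b3*, all 5 *Pde2A*-/- hearts lie below every *Pde2A*+/+ heart for *Atp1a4*, and 2 *Pde2A*-/- hearts stand far above the others for *Atp1b4*.

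Levels of different genes were compared as CPM per kilobase of joined exons. *Atp1b1* had the highest level in *Pde2A*+/+ hearts, 180.0 ± 17.2 CPM per kilobase (SD, n = 6), followed by *Fxyd1* with 62.5 ± 5.78, *Atp1b3* with 42.2 ± 2.01 and *Atp1b2* with 12.1 ± 1.30. *Atp1a4*, at 0.144 ± 0.0199, and *Atp1b4*, at 0.0454 ± 0.0359 CPM per kilobase, were counted with few reads. In *Pde2A*+/+ hearts no neighbours in this order overlapped. In *Pde2A*-/- hearts the order was the same for the 4 abundant genes, and only *Atp1b4* and *Atp1a4* overlapped, with 0.0124 to 0.793 and 0.0303 to 0.103 CPM per kilobase. The place of *Fxyd1* rests on the length used: the joined exons span 2186 bases and the longest transcript 668, and with the latter *Fxyd1* had 205 ± 18.9 and *Atp1b1* 215 ± 20.5 CPM per kilobase in *Pde2A*+/+ hearts, with overlapping values.

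RefSeq (GRCm38.p6) gave 6 windows of 250 bases for 5 of the members, with *Atp1b3* given 2 start sites; *Atp1b2* had no entry. Of these windows, those of *Atp1b1* and *Atp1b3* held 70.4% to 76.8% G or C and those of *Atp1b4*, *Atp1a4* and *Fxyd1* 48.4%, 54.8% and 57.2%, against a median of 52.4% over 32851 windows. The cAMP response element (TGACGTCA, which is its own reverse complement) was in none of the 6 windows and in 1.55% of all windows. Its core (TGACG, both strands, contained in the full element) was in 1 of the 6, upstream of *Atp1b3*, and in 17.8% of all windows. The GC box (GGGCGG, both strands) had 2 matches upstream of *Atp1b1* and 5 in the first window of *Atp1b3*, and 32.7% of all windows held at least 1. The TATA box letters TATAAA, searched on both strands, were in none of the 6 windows and in 12.4% of all windows. Variants of these letters were not searched, and the window of *Atp1b1* holds TATATA. The windows of 3 members are printed, for the member with the highest level, the cardiac FXYD gene that fell and the member that stood out in 2 hearts. They lie at chr1:164458356-164458605 (minus strand), chr7:31054854-31055103 (minus strand) and chrX:38315872-38316121 (plus strand), end at the base before the RefSeq start site, and have GC boxes in capitals. The *Fxyd1* window lies inside the GENCODE span of this minus-strand gene, which begins upstream at 31057199, so it precedes a RefSeq start and not the outermost annotated one.
Atp1b1: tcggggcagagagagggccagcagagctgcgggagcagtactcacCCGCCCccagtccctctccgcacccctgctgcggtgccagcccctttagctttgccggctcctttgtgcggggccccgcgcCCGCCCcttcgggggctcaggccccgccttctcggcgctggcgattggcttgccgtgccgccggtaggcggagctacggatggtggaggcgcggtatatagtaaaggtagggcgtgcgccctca
Fxyd1: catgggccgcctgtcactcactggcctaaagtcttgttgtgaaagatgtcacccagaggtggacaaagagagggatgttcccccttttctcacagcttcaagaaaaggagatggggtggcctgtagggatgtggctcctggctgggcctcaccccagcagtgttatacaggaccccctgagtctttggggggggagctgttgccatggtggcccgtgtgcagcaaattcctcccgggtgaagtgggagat
Atp1b4: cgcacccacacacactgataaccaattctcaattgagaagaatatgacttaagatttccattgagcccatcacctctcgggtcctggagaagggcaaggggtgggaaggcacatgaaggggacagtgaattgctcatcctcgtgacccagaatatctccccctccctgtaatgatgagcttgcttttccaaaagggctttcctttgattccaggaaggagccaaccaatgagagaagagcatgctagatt

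*Atp1b1* (ENSMUSG00000026576, chromosome 1, 164437109 to 164458355) encodes the main beta subunit of the heart, which pairs with alpha in the sarcolemma. In *Pde2A*-/- hearts A, B, 14, D and 15 it had 583, 590.2, 572, 568 and 575 CPM. In *Pde2A*+/+ hearts the lowest value was 483, the median 556 and the highest 626 CPM. The knockout values all lay inside the wild-type range and close to one another. The log2 fold change was 0.06 (standard error 0.06, 95% interval -0.07 to 0.19, adjusted p = 0.569, edgeR), an interval of -4.97% to 14.2%. Of its 3081 exon bases, 18.7% lie opposite exons of *Nme7*, and with reads of both strands the log2 fold change was 0.09. Reads on the opposite strand of *Atp1b1* made up 1.19% of its reads.

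*Atp1b3* (ENSMUSG00000032412, chromosome 9, 96332655 to 96364442), a beta subunit found in many tissues, was the second beta subunit by level. It had 114, 119, 101, 96.1 and 88.2 CPM in *Pde2A*-/- hearts A, B, 14, D and 15. The *Pde2A*+/+ hearts ranged from 93.5 to 108 with a median of 101 CPM. The knockout hearts spread to both sides of the wild-type hearts, with A and B above all of them and 15 below. Their SD was 12.9 CPM (n = 5) against 4.80 CPM (n = 6), and the means did not separate (log2 fold change 0.04, 95% interval -0.11 to 0.20, adjusted p = 0.754, edgeR). *Atp1b3* transcripts share 227 of 2337 windows of 50 bases with *Gm1848*, and reads that map equally well to both are not in these counts.

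*Atp1b2* (ENSMUSG00000041329, chromosome 11, 69599736 to 69605942), known as a beta subunit of glia and neurons, was measured at 55.5, 47.4, 50.4, 52.0 and 50.7 CPM in the same order of *Pde2A*-/- hearts. The *Pde2A*+/+ hearts had 43.9 to 57.7 CPM, with a median of 48.1, and enclosed all knockout values. The log2 fold change was 0.05 (95% interval -0.10 to 0.21, adjusted p = 0.67, edgeR). None of the 7 neural and glial markers was called, and 3 of the 7 had a mean under 1 CPM; their sums were 14.3 to 17.4 CPM in *Pde2A*-/- and 12.4 to 29.7 CPM in *Pde2A*+/+ hearts.

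The makeup of the beta subunit transcripts, as shares of their summed CPM per kilobase, overlapped between the genotypes for each gene. *Atp1b1* made up 75.5% to 79.1% in *Pde2A*-/- and 75.0% to 78.3% in *Pde2A*+/+ hearts. *Atp1b3* made up 15.6% to 19.7% and 17.3% to 18.9%, a wider range in *Pde2A*-/- hearts. *Atp1b2* made up 4.58% to 5.42% and 4.37% to 6.36%. The largest share of *Atp1b4* in any heart was 0.333%, in *Pde2A*-/- replicate D, and the largest in a *Pde2A*+/+ heart was 0.0515%.

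**Figure D2:**
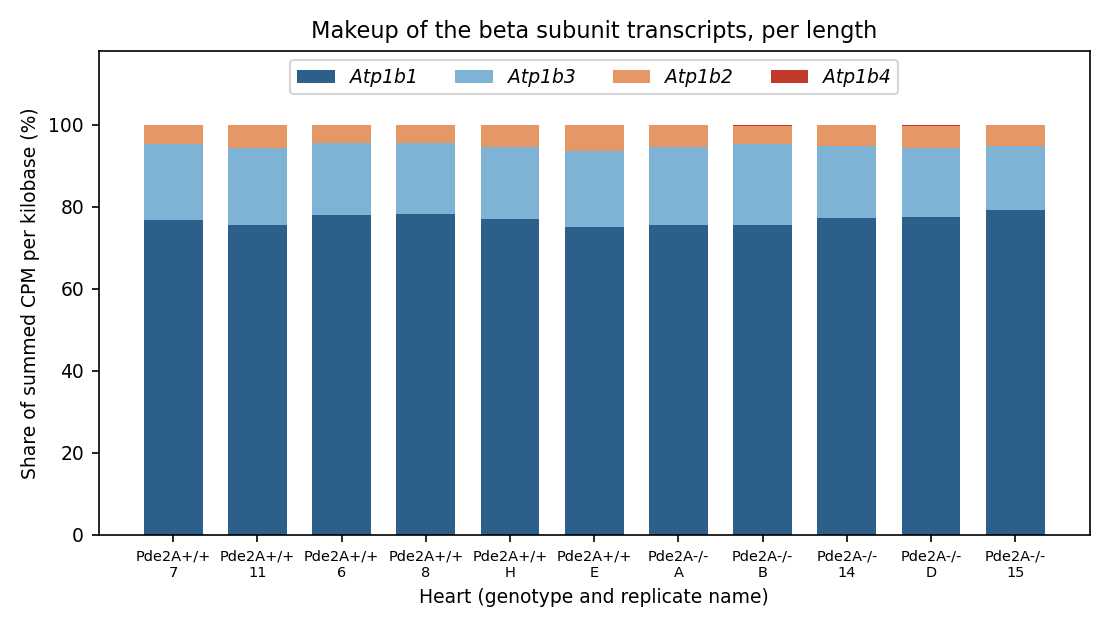
Share of each beta subunit gene in the summed CPM per kilobase (%), 1 bar per heart, by genotype and replicate name. *Atp1b1* makes up between 75.0% and 79.1% of every bar, and *Atp1b4* is too small to see in most hearts.

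*Fxyd1* (ENSMUSG00000036570, chromosome 7, 31051678 to 31057199) encodes phospholemman, which holds the pump back until it is phosphorylated. *Pde2A*-/- hearts A, B, 14, D and 15 had 112, 131, 117, 116 and 113 CPM. The *Pde2A*+/+ hearts had 119.5 to 153 CPM with a median of 139.8. All knockout hearts except B lay below every wild-type heart. *Fxyd1* fell by 0.22 on the log2 scale (standard error 0.07, 95% interval -0.36 to -0.07, adjusted p = 0.0476, edgeR), or by 13.9%. Leaving out any 1 heart kept the direction, with a log2 fold change between -0.25 and -0.18, but the call held in only 3 of those 11 fits. It was lost without *Pde2A*-/- replicate A, 14, 15 or D or *Pde2A*+/+ replicate 6, 8, E or H (adjusted p from 0.0762 to 0.105, edgeR). Of the 10 cardiomyocyte markers, 3 were called lower, *Tnnc1* (-0.48), *Mybpc3* (-0.34) and *Smpx* (-0.50), and 0 higher. The other 7 did not pass, *Myh6* and *Ryr2* had positive log2 fold changes (0.30 and 0.17), and the median of the list was -0.20. Their sum was 14456 to 16101 CPM in *Pde2A*-/- and 15679 to 19290 CPM in *Pde2A*+/+ hearts. Their part in the fall of *Fxyd1* was not tested.

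*Atp1a4* (ENSMUSG00000007107, chromosome 1, 172223513 to 172258414), the alpha subunit required for sperm motility, was counted at low depth, with 4 to 16 reads in a *Pde2A*-/- and 18 to 23 reads in a *Pde2A*+/+ heart. In CPM, *Pde2A*-/- hearts A, B, 14, D and 15 had 0.339, 0.378, 0.199, 0.111 and 0.165. The *Pde2A*+/+ hearts had 0.447 to 0.630 CPM with a median of 0.525. Every knockout heart was below every wild-type heart, as was the case for 3.11% of all genes tested. *Atp1a4* fell by 1.12 on the log2 scale (standard error 0.29, 95% interval -1.74 to -0.51, adjusted p = 0.0212, edgeR), a level 2.18-fold lower. It was the only member with a call and a fold of at least 2, as 0.372% of all genes tested were in this direction. The call was lost without *Pde2A*-/- replicate 14 (adjusted p = 0.0584, edgeR) or replicate 15 (0.0553). Of its 3615 windows of 50 bases, 86 are also in transcripts of related alpha subunit genes, and reads on them are uncertain. None of the 3 male germ line markers that could be tested was called. The 4 markers on the list summed to 1.30 to 2.31 CPM in *Pde2A*-/- and 1.12 to 2.40 CPM in *Pde2A*+/+ hearts. *Prm1*, a protamine of sperm, had 6 counts over all hearts and was not tested.

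*Atp1b4* (ENSMUSG00000016327, chromosome X, 38316184 to 38336769) encodes a beta-like protein of muscle that in placental mammals sits in the nuclear membrane instead of the pump. *Pde2A*-/- hearts A, B, 14, D and 15 had 0.0522, 2.20, 0.149, 3.33 and 0.248 CPM. The *Pde2A*+/+ hearts had 0.0746 to 0.480 CPM with a median of 0.134. Replicates B and D were above every wild-type heart, 14 and 15 were within the wild-type range, and A was below it. The log2 fold change was 2.61 (standard error 0.87, 95% interval, not adjusted, 0.73 to 4.50, adjusted p = 0.0612, edgeR), so the gene was not called. DESeq2 called it (adjusted p = 0.0274), as did edgeR with the level of *Xist* as a covariate (0.0162) or without *Pde2A*-/- replicate A (0.0186). With replicates B and D both left out, the log2 fold change was -0.36 (adjusted p = 0.773, edgeR).

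*Atp1b4* and the sum of skeletal muscle markers were highest in the same hearts, *Pde2A*-/- replicates B and D. *Myh3*, the embryonic myosin heavy chain of skeletal muscle, had 71.0 and 86.7 CPM in *Pde2A*-/- replicates B and D, against 0.391, 1.34 and 2.31 CPM in A, 14 and 15. In *Pde2A*+/+ hearts it had 0.877 to 16.7 CPM, with the highest value in replicate E, where *Atp1b4* was also highest of that genotype. *Myog*, a transcription factor of muscle differentiation, had 4.08 and 2.41 CPM in B and D and at most 2.20 CPM in every other heart. The 6 skeletal muscle markers summed to 101 and 105 CPM in B and D, to 6.92 to 11.4 CPM in the other *Pde2A*-/- hearts and to 4.25 to 24.5 CPM in *Pde2A*+/+ hearts. *Tnnt3*, a fast troponin T, was the 1 of the 6 called higher (log2 fold change 1.36, adjusted p = 0.0435, edgeR), and no marker of the list was at 0 in every heart. Among *Pde2A*+/+ hearts the match was looser: replicates 7 and 8 had 0.104 and 0.105 CPM of *Atp1b4*, with marker sums of 6.08 and 14.2 CPM. The part of these markers in the values of *Atp1b4* was not tested.

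**Figure D3:**
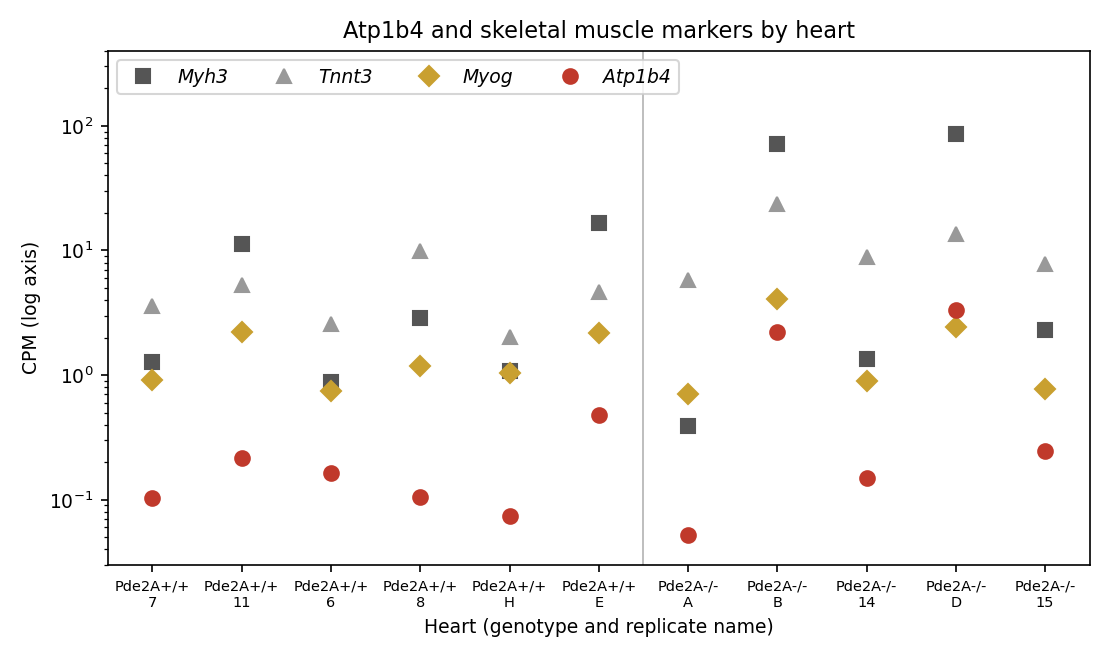
CPM (log axis) of *Atp1b4* and of the skeletal muscle markers *Myh3*, *Tnnt3* and *Myog* in each heart, *Pde2A*+/+ left of the line and *Pde2A*-/- right of it. *Pde2A*-/- replicates B and D have the highest values of all 4 genes, with 71.0 and 86.7 CPM of *Myh3* and 2.20 and 3.33 CPM of *Atp1b4*.

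Partner genes of the pump were taken as 29 genes in 5 groups, of which 26 could be tested. Of these, 5 were called higher and 2 lower, and their median log2 fold change was 0.05. Over all genes tested, 8.93% were called higher and 5.67% lower. The list was chosen with earlier results of these data known, and with 1 heart left out 2 to 5 of its genes were called higher, so nothing is read from its share.

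In the FXYD group, *Fxyd5* and *Fxyd6* were called higher, 0 of 5 tested genes were called lower, and *Fxyd4* had no count in any heart. The median log2 fold change of the 5 was -0.50, and the 3 without a call, *Fxyd2*, *Fxyd3* and *Fxyd7*, each had a mean under 1 CPM. *Fxyd6*, phosphohippolin, had 32.8, 35.7, 40.5, 38.3 and 41.4 CPM in *Pde2A*-/- hearts A, B, 14, D and 15, and 28.1 to 33.2 CPM with a median of 30.7 in *Pde2A*+/+ hearts. Replicate A alone overlapped the wild-type hearts. *Fxyd6* rose by 0.31 on the log2 scale (with a standard error of 0.07 and adjusted p = 0.0109, edgeR), and the call held in all 11 fits that left out 1 heart. *Fxyd5*, dysadherin, a FXYD protein with a long extracellular part, rose from 9.88 ± 1.36 (SD, n = 6) to 12.8 ± 1.20 CPM (SD, n = 5; log2 fold change 0.38, adjusted p = 0.0266, edgeR) and passed in 6 of these fits. In this family the cardiac member *Fxyd1* was thus lower and these 2 members were higher; the difference between the members was not tested.

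Among the NKAIN genes, whose membrane proteins bind the beta subunit, 1 of 4 was called. *Nkain1* had 3.68, 2.88, 2.71, 2.86 and 2.40 CPM in *Pde2A*-/- hearts A, B, 14, D and 15. In *Pde2A*+/+ hearts it had 3.75 to 4.68 CPM with a median of 4.29. Every knockout heart was below every wild-type heart, as for 3.11% of all genes tested, though A lay close to the lowest of them. *Nkain1* fell by 0.54 on the log2 scale (with a standard error of 0.12 and adjusted p = 0.0138, edgeR) and passed in all 11 fits that left out 1 heart. *Nkain4*, the most abundant of the 4, had 20.0 ± 1.22 and 17.9 ± 2.13 CPM in *Pde2A*-/- and *Pde2A*+/+ hearts and was not called (log2 fold change 0.15, 95% interval -0.02 to 0.33, adjusted p = 0.222, edgeR). The proton-potassium pump relatives of stomach and colon were nearly absent: *Atp4a* had 0.446 ± 0.163 and 0.373 ± 0.102 CPM, and *Atp4b* had 9 counts over all hearts.

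Of 11 transporters that are driven by the sodium gradient, 3 were called higher and 1 lower. *Slc20a1*, a sodium-phosphate cotransporter, had 58.4, 66.1, 67.2, 61.8 and 64.9 CPM in *Pde2A*-/- hearts A, B, 14, D and 15 and 41.0 to 47.7 CPM with a median of 44.7 in *Pde2A*+/+ hearts. Every knockout heart was above every wild-type heart, as for 5.38% of all genes tested. *Slc20a1* rose by 0.51 on the log2 scale (with a standard error of 0.05 and adjusted p = 5.77e-05, edgeR), with an adjusted p of at most 0.000361 when any heart was left out. *Slc4a4*, a sodium-bicarbonate cotransporter, was raised in 3 hearts only: 14, D and 15 had 62.8, 65.2 and 71.6 CPM, while A and B had 38.6 and 37.6 CPM, within the 34.9 to 42.0 CPM of *Pde2A*+/+ hearts. *Slc4a4* was called higher (0.53 on the log2 scale, 95% interval 0.20 to 0.86, adjusted p = 0.0347, edgeR), and the call held in 3 of 11 fits that left out 1 heart.

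*Slc8a1*, the main sodium-calcium exchanger of the heart, was the most abundant partner gene and was not called, with 1726 ± 38.1 CPM in *Pde2A*-/- and 1666 ± 176 CPM in *Pde2A*+/+ hearts (log2 fold change 0.05, 95% interval -0.09 to 0.20, adjusted p = 0.658, edgeR). Its paralog *Slc8a2*, better known from neurons, fell by 0.43 on the log2 scale (7.63 ± 1.38 against 10.3 ± 1.04 CPM, adjusted p = 0.0294, edgeR) and passed in 6 of 11 fits. *Slc6a6*, the taurine transporter, had 184 ± 34.8 against 145 ± 10.7 CPM and rose by 0.34 on the log2 scale (adjusted p = 0.0437, edgeR), a call that held in 1 of the 11 fits. Of the 5 anchors and regulators, which include the ankyrins that tether the pump, 0 were called; *Ank3* had a log2 fold change of 0.05 (95% interval -0.10 to 0.21) and *Nedd4l*, a ubiquitin ligase of sodium transporters, of 0.02 (-0.14 to 0.17).

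**Figure D4:**
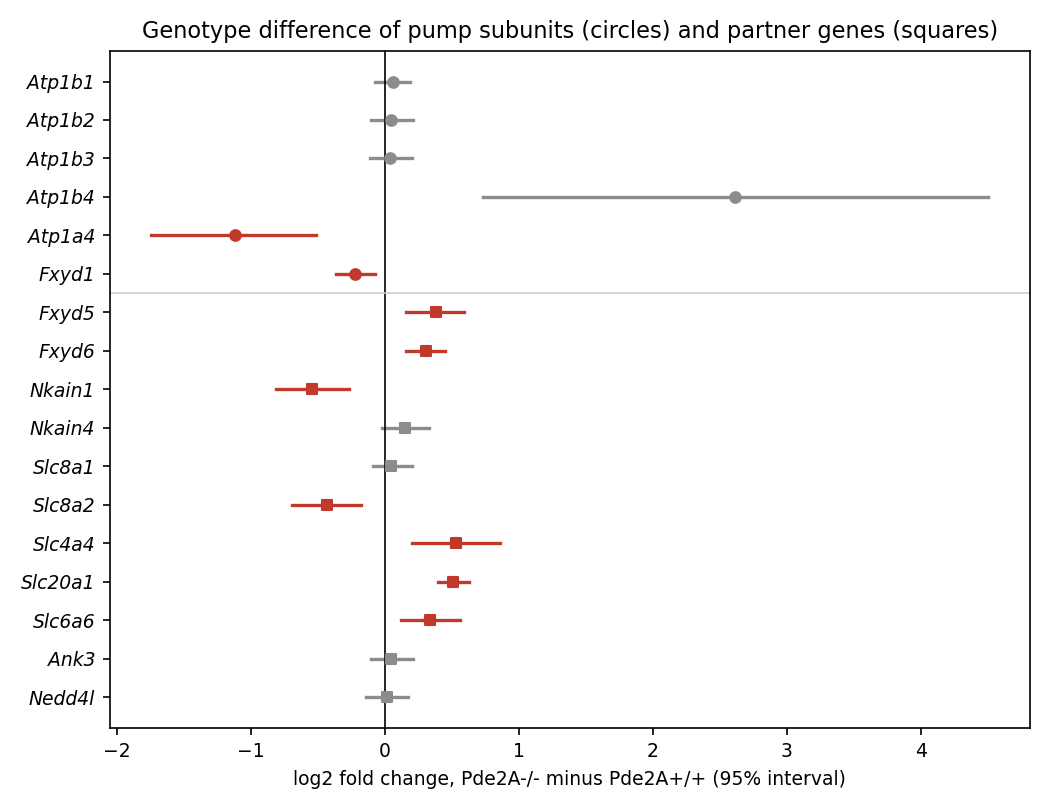
Log2 fold change, *Pde2A*-/- minus *Pde2A*+/+, with its 95% interval from edgeR, for the pump genes (circles) and named partner genes (squares); red marks an adjusted p under 0.05. *Atp1b1*, *Atp1b2* and *Atp1b3* lie between 0.04 and 0.06, and *Atp1b4* has the widest interval, from 0.73 to 4.50.

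The genes most like each abundant member were sought over the 11 hearts by the Pearson correlation of log2 CPM after the mean of each genotype was removed, among the 13056 protein-coding genes whose mean was 1 CPM or more. *Cfl2* and *Kctd3* were nearest to *Atp1b1* (0.94 each), *Tet3* and *Zfp629* to *Atp1b2* (0.93 each), *Actr1a* and *Prelid3b* to *Atp1b3* (0.98 each), and *Ndufa2* (0.96) and *Tfpt* (0.95) to *Fxyd1*. No pair of members shared a nearest gene. These values are a description: with 11 hearts and so many genes the highest correlations are large by selection, and the points share library, depth and normalization.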

How the data were processed

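Stranded mRNA libraries of 11 hearts were sequenced single-end on an Illumina instrument. Alignment by the authors was with STAR against GRCm38, and the raw counts per gene that they deposited for each heart come with columns for both strands, the opposite strand and the sense strand; the STAR version and annotation are not given in the sources used here. The sense-strand counts were used. Between 19.6% and 22.4% of reads were on no single gene and stayed out of library sizes. Of 55487 gene identifiers, 55227 matched GENCODE M21, which gave names, positions and exon lengths.

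After a filter of 10 counts summed over all hearts, genes were fitted with edgeR 4.0.16 in R 4.3.3 (TMM, glmQLFit, glmQLFTest, Benjamini-Hochberg over 24177 genes). The standard error is the log2 fold change divided by the root of F, and the 95% intervals are not adjusted. Groups came from the titles. The members and lists were chosen with earlier results of these data known. Partner genes were named if called or among the 2 highest by mean CPM in their group. DESeq2 1.42.0 was an alternative (others were size factors, other filters, both strands, covariates, globin genes left out and each heart left out). The fitting code was checked on simulated counts with 1 dispersion for all genes. The genes changed in that check had a mean above 1 CPM, so it does not cover *Atp1a4* and *Atp1b4* (means of 0.397 and 0.647 CPM). Counting error is largest for *Atp1a4*, with 4 to 23 reads per heart, and for the hearts with few reads of *Atp1b4*.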

Additional observations from a re-analysis of the deposited data

Results flagged for a closer look

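In each genotype, the highest and lowest heart was compared with the others by the ratio of its gap to the whole range, for 19 named genes and 38 groups, of which chance would mark about 1 in 20. A heart was marked in 2 of the 38, which is about the number that chance gives. *Fxyd1* in *Pde2A*-/- replicate B had 131 CPM, against 112 to 117 CPM in the other *Pde2A*-/- hearts. *Atp1b4* in *Pde2A*+/+ replicate E had 0.480 CPM, against 0.0746 to 0.217 CPM in the other *Pde2A*+/+ hearts, and replicate E also had the highest *Myh3* of that genotype.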

How the results depend on the processing

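The number of members called higher, 0, became 1 (*Atp1b4*) with DESeq2, with *Xist* as a covariate and at an unadjusted p under 0.05, and was 0 to 1 when each heart was left out. The number called lower, 2, became 1 (*Atp1a4*) without a filter, with reads of both strands, with *Xist* as a covariate, at a fold of at least 2 and with *Pde2A*-/- replicates B and D both left out, a setting added after the data were seen, and was 0 to 2 when each heart was left out. The 5 partner genes called higher and 2 called lower became 3 and 0 without B and D, and 2 to 5 and 1 to 3 when each heart was left out. *Atp1b3* changed sign without *Pde2A*-/- replicate B (log2 fold change -0.01, in a range of -0.01 to 0.10 when each heart was left out), and *Atp1b4* without B and D (-0.36). With the style of the replicate name, letter or number, as a covariate, *Atp1b4* had a log2 fold change of 1.75 and an adjusted p of 0.195 (edgeR). *Atp1b4* did not pass filterByExpr and was not tested there. The cause of these changes was not tested. No analysis paired by litter was possible because the labels give no litter. Depth limits *Atp1a4*, with 4 to 23 reads per heart. *Atp1b4* had 2 to 120 reads per heart, a spread that was not split into counting error and differences between hearts.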
